A study of Mus musculus with 10 samples.

Results

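Small nucleolar RNAs (snoRNAs) were followed in the RNA-seq counts of mouse hearts by taking every row whose gene symbol begins with Snord or Snora and a number. This gave 110 of the 24537 rows of the table, 74 Snord rows (box C/D snoRNAs) and 36 Snora rows (box H/ACA snoRNAs). Another 9 rows that the table types as snoRNA carry clone or accession names and were not taken. All 10 mice were offspring of C57BL/6J dams fed doxycycline chow from E0.5 to birth, and all carried 1 copy of Rosa26-rtTA2, the transactivator driven by the Rosa26 promoter. The 5 iSOD2 mice also carried TRE-SOD2-shRNA at Col1a1 (TRE-SOD2-shRNA+/-), so that Sod2 was knocked down in utero only, and the 5 control littermates lacked it (TRE-SOD2-shRNA-/-). Hearts of both sexes were collected at 6 weeks, and litter, called A and B here, was taken from the labels, with 2 control and 2 iSOD2 mice in litter A and 3 of each in litter B. Each mouse is called by its genotype and its number in the labels.

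SnoRNAs are short noncoding RNAs of the nucleolus, most of which are cut from the introns of host genes after splicing. Box C/D snoRNAs pair with ribosomal RNA and direct 2'-O-methylation by fibrillarin, whereas box H/ACA snoRNAs direct pseudouridylation by dyskerin. A few, such as U8, U14 and U22, act in cleavage of the ribosomal RNA precursor, and the snoRNAs in the introns of Rpl13a are known for their part in responses to lipid and oxidative stress.

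The sequences of abundant rows other than Snora74a and of the Rpl13a family are given here. They are the GENCODE transcripts of the same symbol and strand in GRCm38 (mm10), written 5′ to 3′ as DNA letters, with box C (TGATGA) and box D (CTGA) in capitals in the C/D RNAs and the ACA box in capitals in the H/ACA RNAs. The first of them are Snord17 (chr2:144265979-144266216, minus strand), Snord15b (chr7:99479563-99479707, minus strand), Snord15a (chr7:99482785-99482932, minus strand) and Snord22 (chr19:8725866-8725991, plus strand).
Snord17: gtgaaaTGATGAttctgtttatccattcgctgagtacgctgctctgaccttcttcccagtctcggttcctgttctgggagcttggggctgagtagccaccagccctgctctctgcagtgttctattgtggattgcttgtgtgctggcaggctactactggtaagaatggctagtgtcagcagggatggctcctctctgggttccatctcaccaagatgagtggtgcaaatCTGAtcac
Snord15b: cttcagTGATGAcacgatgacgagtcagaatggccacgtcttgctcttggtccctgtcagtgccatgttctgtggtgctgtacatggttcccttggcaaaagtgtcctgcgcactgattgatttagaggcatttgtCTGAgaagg
Snord15a: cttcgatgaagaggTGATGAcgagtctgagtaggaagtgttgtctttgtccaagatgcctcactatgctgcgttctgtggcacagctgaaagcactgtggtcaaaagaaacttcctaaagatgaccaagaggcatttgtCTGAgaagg
Snord22: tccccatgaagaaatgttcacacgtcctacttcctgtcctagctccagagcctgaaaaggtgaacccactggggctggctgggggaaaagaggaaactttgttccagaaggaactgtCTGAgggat
Snord15a and Snord15b both come from the Rps3 gene, and they were identical at 107 of 162 aligned positions (66.0%). Snord22 held box D but no TGATGA within its first 20 bases. The H/ACA RNAs shown are Snora81 (chr16:23110756-23110933, plus strand), Snora23 (chr7:110046364-110046547, plus strand) and Snora7a (chr6:115807975-115808114, minus strand).
Snora81: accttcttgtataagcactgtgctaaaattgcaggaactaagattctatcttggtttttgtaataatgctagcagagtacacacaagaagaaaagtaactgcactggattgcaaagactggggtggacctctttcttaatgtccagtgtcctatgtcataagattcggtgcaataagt
Snora23: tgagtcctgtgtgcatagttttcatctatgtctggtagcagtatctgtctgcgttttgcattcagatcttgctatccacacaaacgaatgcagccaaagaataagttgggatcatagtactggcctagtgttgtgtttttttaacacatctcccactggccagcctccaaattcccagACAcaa
Snora7a: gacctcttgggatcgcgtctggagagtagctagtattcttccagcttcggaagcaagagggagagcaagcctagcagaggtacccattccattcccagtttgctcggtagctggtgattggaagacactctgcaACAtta
Snora81 had no ACA at the searched position, 3 bases before the 3′ end. The 4 RNAs of the Rpl13a introns are Snord32a (chr7:45127382-45127464, minus strand), Snord33 (chr7:45126864-45126947, minus strand), Snord34 (chr7:45126601-45126670, minus strand) and Snord35a (chr7:45126346-45126435, minus strand).
Snord32a: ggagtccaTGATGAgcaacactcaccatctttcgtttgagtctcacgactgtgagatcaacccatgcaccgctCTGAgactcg
Snord33: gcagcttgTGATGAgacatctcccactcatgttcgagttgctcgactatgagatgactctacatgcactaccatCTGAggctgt
Snord34: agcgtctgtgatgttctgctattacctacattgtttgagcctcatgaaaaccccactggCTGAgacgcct
Snord35a: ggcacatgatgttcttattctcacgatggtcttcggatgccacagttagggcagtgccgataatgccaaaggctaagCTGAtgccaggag

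Over the members with a GENCODE transcript at the same locus and strand, TGATGA stood within the first 20 bases of 40 of 65 Snord RNAs (61.5%) and CTGA within the last 15 bases of 60 (92.3%), against 0.571% and 6.32% of 7009 other transcripts of 50 to 250 bases. ACA at 3 bases before the 3′ end was found in 30 of 36 Snora RNAs (83.3%), in no Snord RNA and in 1.93% of the other transcripts. These letters were searched on the RNA strand only and are a description of the sequences.

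The rows were short. The exon length in the table ran from 21 to 220 bp in the Snord rows (median 65) and from 54.5 to 197 bp in the Snora rows (median 118.5). Most rows fitted the annotation, since 101 lay at the locus and strand of the GENCODE gene of that name. The exceptions were 6 rows at another locus (Snord118, Snord14a, Snord14c, Snord14d, Snord116l1 and Snord116l2), Snord53 on the opposite strand, and Snord43 and Snord116, whose symbols were not found. The row covered a median of 88.5% of the annotated length, and less than 80% in 26 rows. A host row on the same strand enclosed 102 of the members, from 74 host genes, and 48 members overlapped an exon of another annotated gene. The counts of those 48 are uncertain, because reads from the other transcript could be counted with them. Among the abundant rows this held for Snora74a, Snord15b, Snord22, Snora81 and Snora7a, whereas Snord17, Snord15a and Snora23 lay in introns of their hosts.

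In units of 1000000, libraries held 16.4 to 24.3 counts over genes (median 20.9). The 5 ventricular cardiomyocyte markers (Myh6, Myl2, Tnnt2, Tnni3, Actc1) were present in every heart, whereas the summed level of hepatocyte markers (Alb, Apoa1 and others) was 81.8 normalized counts at the lowest, in control 1, and 16981 at the highest, in an iSOD2 heart. The targeted gene Sod2 stood at 10573 ± 588 normalized counts in control hearts and 10781 ± 449 in iSOD2 hearts (SD, 5 mice per genotype), a difference well within the spread between mice (log2 fold change 0.03, DESeq2 adjusted p = 0.806). Normalized counts here are counts divided by the DESeq2 size factor of the library.

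A few long rows held nearly all counts of the 110 snoRNA rows. Known snoRNAs without a row under their symbol, namely Snord3a, Snord13, Snora73a and Snora73b, are outside these shares. The shares are therefore not shares of all snoRNA in the heart. Snora74a, the H/ACA RNA also known as U19, held 50.8% of the counts of the 110 rows, and with Snord17 and Snord15b 81.3%. The 8 rows averaging at least 50 normalized counts (these 3, Snora23, Snora81, Snord22, Snora7a and Snord15a) held 91.2%. At the other end 6 rows had no count in any library, namely Snord116, Snord116l1 and Snord116l2, which share 1 interval, Snord14c, Snord14d and Snora35. A count of 0 allows up to 3 counts in a library, or 0.124 to 0.182 per 1000000, by counting error alone. Counts were seen in all 10 hearts for 81 rows, but the mean reached 5 normalized counts in only 37.

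Levels between rows were compared per kilobase of exon length. Snora74a stood at 15630.3 normalized counts per kb, the 99.7th percentile of all rows tested, and was followed by Snord17 with 6249 and Snord15b with 3281 per kb. Snord22 stood at 1196, Snora81 at 996 and Snora23 at 914 per kb. The median was 79.99 counts per kb over all 36 Snora rows and 34.4 over all 74 Snord rows, beside 78.9 for all rows tested. The level of the usual H/ACA row was thus close to that of the usual gene tested. Only 35 of the Snora rows and 54 of the Snord rows were tested, so the Snord median includes many rows of few counts that the median over rows tested leaves out. Of the 20 rows highest per kb, 14 were Snora and 6 Snord. For comparison, Rmrp and Rpph1, the RNAs of ribonucleases MRP and P, stood at 92977 and 239578 per kb.

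Level per kb went with length. The 7 rows of at least 140 bp (4 Snora, 3 Snord) had a median of 996 counts per kb and held 88.3% of the counts of the 110 rows. The 29 rows of 100 to under 140 bp had a median of 77.2, and the 74 rows under 100 bp, of which 70 were Snord, had a median of 34.2 and a highest value of 268. Across the 110 rows the rank correlation of length with level per kb was 0.40, within the 74 Snord rows 0.05 and within the 36 Snora rows 0.34. These points share their libraries and their division by length. RNA was extracted with a silica-column kit, and libraries of fragmented total RNA keep short RNAs less well than long ones. How far recovery of short RNA set these levels was not tested.

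**Figure D1:**
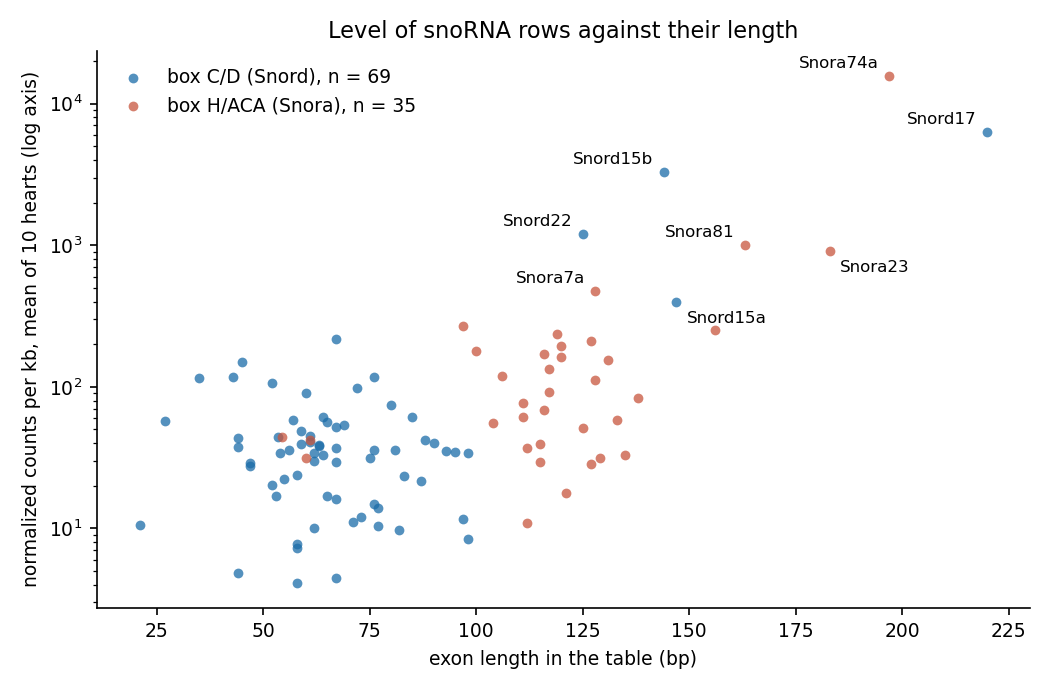
Mean normalized counts per kb over 10 hearts (log axis) against exon length in bp for the 104 snoRNA rows with any count, coloured by box class, with the 8 rows of at least 50 mean normalized counts named. The named rows are all at least 125 bp long and lie at 397 counts per kb or above, while no row under 100 bp exceeds 268.

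The snoRNA share of the library covered nearly the same range in both genotypes. Summed over the 110 rows, control hearts had 247 to 328 snoRNA counts per 1000000 counts over genes (median 299) and iSOD2 hearts 238 to 334 (median 307). By litter the share was 299 to 328 (median 311) in litter A and 238 to 334 (median 268) in litter B. The lowest 4 values (iSOD2 5, control 4, control 3 and iSOD2 10) were all from litter B, but iSOD2 9 of the same litter had the highest. In bulk RNA of a heart, fewer cells of a type and less RNA per cell cannot be told apart.

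To ask whether snoRNA levels still differed after the in utero knockdown, iSOD2 and control hearts were compared across all genes with the DESeq2 Wald test. No snoRNA row was called at an adjusted p of at most 0.05 and an absolute log2 fold change above 0.25, where 2.96% of the 9479 genes with an adjusted p were called. Only 5 members, Snora74a, Snord17, Snord15b, Snora23 and Snora81, had enough counts to be given an adjusted p, and the lowest was 0.624 (DESeq2, Snora81). At an unadjusted p under 0.05 there were 0 of 89 members tested, beside 13.2% of all genes tested, and 2 (Snora65 and Snord53) by edgeR, beside 15.3% of all genes in that test, which called no gene of the table. Of the 89, 41 were higher and 48 lower in iSOD2 hearts, with a median log2 fold change of -0.05 beside 0.00 for all genes, of which 50.4% were lower. The other 21 members had fewer than 10 rounded counts in all and were not tested.

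Snora74a had 3239.9, 3968, 2683, 2571 and 3207 normalized counts in controls 1, 2, 3, 4 and 6, and 2426, 3268, 3432, 3311 and 2686 in iSOD2 5, 7, 8, 9 and 10. The genotypes overlapped over most of their range, and the log2 fold change was -0.05 (standard error, SE, 0.12, 95% interval -0.29 to 0.19, adjusted p = 0.863 by DESeq2). Snord17, in an intron of the sorting nexin gene Snx5, had 1413, 1388, 1332, 1179 and 1380.1 in control hearts and 1068, 1569, 1329, 1734 and 1357 in iSOD2 hearts in the same order. Both its lowest and its highest heart were iSOD2, and the log2 fold change was 0.08 (SE 0.11, interval -0.14 to 0.29, adjusted p = 0.751). Snord15b, a guide of 28S rRNA methylation from the Rps3 gene, had 489, 544, 409, 409.9 and 493 in control hearts and 414, 501, 501, 555 and 407 in iSOD2 hearts. Its genotypes covered nearly the same range, and iSOD2 stood 0.02 above control on the log2 scale (SE 0.11, interval -0.20 to 0.24, adjusted p = 0.949). The intervals of these 3 leave room for a change of at most 0.29 on the log2 scale in either direction.

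The next rows by level were less precise. Snora81, from the translation factor gene Eif4a2, had 166, 205, 100.3, 103 and 180.1 normalized counts in control hearts and 137, 189, 166, 227 and 149.9 in iSOD2 hearts (log2 fold change 0.20, SE 0.20, adjusted p = 0.624 by DESeq2). Snora23, from the importin gene Ipo7, had 162, 212, 133, 114 and 179 in control hearts and 127, 193, 176, 222 and 156 in iSOD2 hearts (0.13, SE 0.18, adjusted p = 0.743 by DESeq2). In both, controls 3 and 4 were low and iSOD2 9 was the highest heart, and the genotypes overlapped. Snord22 (U22), which acts in maturation of 18S rRNA and comes from the noncoding host Snhg1, had 169, 172, 125, 113 and 170.0 in control hearts and 133, 149, 155, 172 and 135 in iSOD2 hearts, with a log2 fold change of -0.01 (SE 0.14, interval -0.29 to 0.27). In Snord22 the genotypes again shared most of their range. Snora7a, an H/ACA RNA from the ribosomal protein gene Rpl32, had 60.1, 80.6, 47.0, 52.8 and 73.9 in control hearts and 54.0, 61.6, 73.6, 56.3 and 49.0 in iSOD2 hearts, with the iSOD2 values inside the control range (-0.09, SE 0.19). Snord15a, from the same gene as Snord15b, had 53.4, 54.3, 57.7, 42.0 and 65.8 in control hearts and 53.2, 72.5, 55.1, 71.9 and 58.0 in iSOD2 hearts, with iSOD2 7 and 9 above all controls (0.19, SE 0.18). Of the 8 rows 5 were higher and 3 lower in iSOD2 hearts, where 51.5% of all genes at that level were lower, and each of the 8 intervals held 0.

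Among all members tested, Snord53 alone had genotypes that did not overlap, where 3.77% of all genes tested had none. It had 5.88, 4.77, 5.02, 4.94 and 6.07 normalized counts in control hearts and 2.53, 1.55, 2.2, 4.4 and 2.83 in iSOD2 hearts (log2 fold change -1.01, SE 0.62, DESeq2 unadjusted p = 0.104). The two-sided exact permutation p was 0.00794, the smallest that these arrangements of 10 mice can give. Snord53 was chosen after its values were seen, its row is 35 bp long and lies on the strand opposite to the annotated gene, and its highest value is 6.07.

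Compared between litter B and litter A with genotype as covariate, Snora74a fell by 0.30 on the log2 scale (SE 0.09, interval -0.48 to -0.12, DESeq2 adjusted p = 0.0284). It was the only member called of 37 with an adjusted p, where 0.977% of 15654 genes were called lower and 3.5% in either direction. Snora74a had 3239.9, 3968, 3268 and 3432 normalized counts in litter A, and its litter B hearts ran from 2426 to 3311 with a median of 2684. Of litter B only iSOD2 9 lay within the range of litter A, and control 6 lay just below it, so the litters overlapped in 1 heart (exact permutation p = 0.0238, two-sided). The call was lost in edgeR (adjusted p = 0.107), with sex as a further covariate (adjusted p = 0.0994 by DESeq2) and without any 1 of 6 hearts (control 2, 3 or 4, or iSOD2 7, 8 or 10), where the log2 fold change was -0.23 to -0.33. The summed level of the 5 ventricular cardiomyocyte markers was lower in litter B too, and its litters did not overlap, at 1.44 to 1.59 in litter A and 1.27 to 1.41 in litter B, in units of 1000000 normalized counts. Its part in the result was not tested. Sex was uneven between litters, with 3 males and 1 female in litter A and 2 males and 4 females in litter B.

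Of the 89 members tested, 61 were lower and 28 higher in litter B, beside 50.9% of all genes lower, and 1 had an unadjusted p under 0.05, beside 13% of all genes. The other abundant rows had values in the same direction without passing the test. All 8 rows with a mean of at least 50 were lower in litter B, with a median log2 fold change of -0.23, where 51.2% of all genes at that level were lower and the median was 0.00. Snora7a was at -0.31 (SE 0.19, adjusted p = 0.484), Snora81 at -0.29 (SE 0.19, adjusted p = 0.538), Snora23 at -0.26 (SE 0.17, adjusted p = 0.517) and Snord15b at -0.18 (SE 0.10, adjusted p = 0.406), all by DESeq2. Snord22 was at -0.19 (SE 0.14), while Snord17 at -0.09 (SE 0.11) and Snord15a at -0.02 (SE 0.19) were nearest to 0. Leaving out 1 mouse or changing the test, scaling or filter kept 7 or 8 of the 8 lower, but 6 were lower with sex as a further covariate. Of the 37 rows with a mean of at least 5, 33 were lower and 4 higher in litter B (50.7% of all such genes lower). The 8 rows were measured in the same libraries and are not independent of each other. Among 18 other rows of at most 220 bp and a mean of at least 50, 13 were lower, with a median of -0.09.

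**Figure D2:**
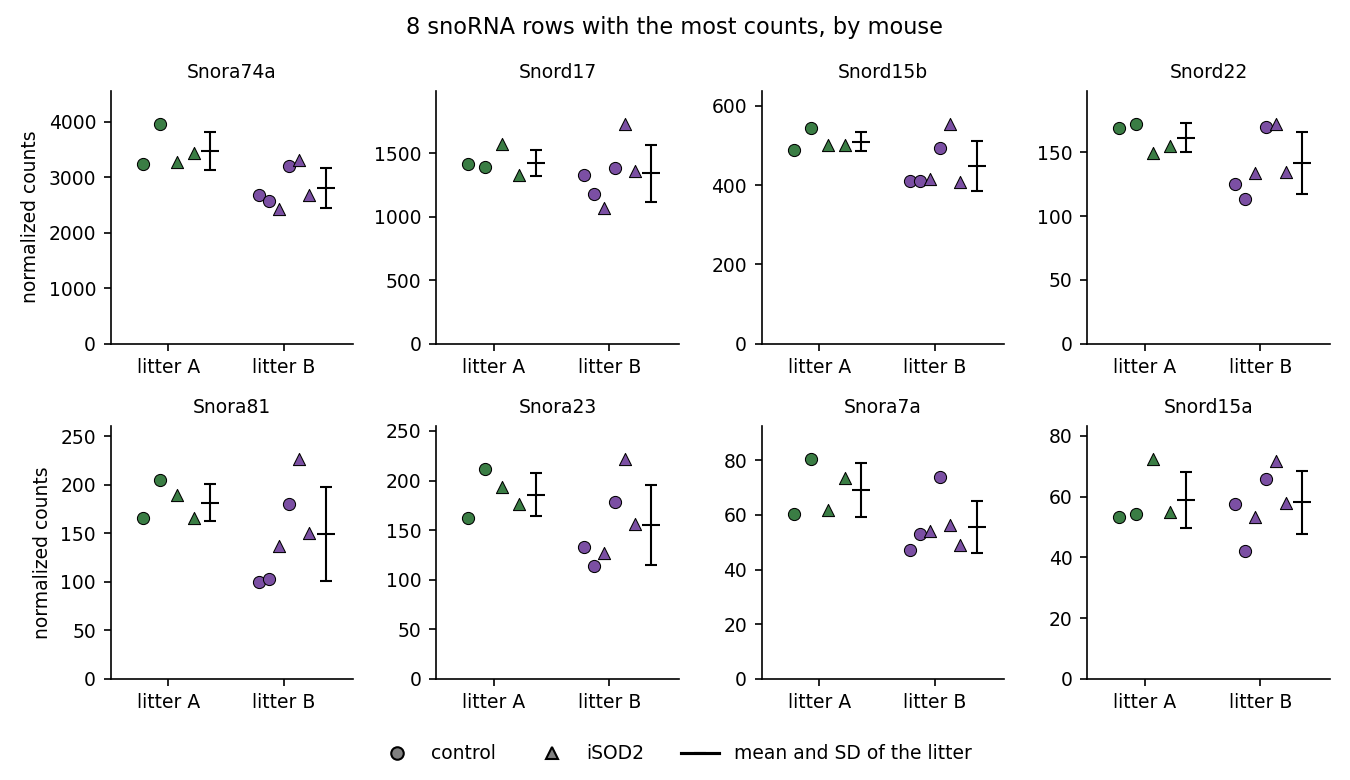
Normalized counts of the 8 snoRNA rows with the most counts in each heart, by litter (colour) and genotype (circles control, triangles iSOD2), with the mean and SD of the litter (n = 4 and 6). In litter B, control 3, control 4 and iSOD2 5 lie low in most panels while iSOD2 9 lies high, and the litters overlap in all 8.

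The same hearts were low in row after row. Control 4 and iSOD2 5 were among the 4 lowest hearts in 8 of the 8 rows, control 3 in 7 and iSOD2 10 in 6, all of litter B. Control 2 and iSOD2 7 of litter A and iSOD2 9 of litter B were among the 4 highest in 7 rows each. Other abundant structured RNAs followed a like order. Rmrp had 27415, 28858, 29062 and 27164 normalized counts in litter A and 25003, 19611, 27733, 19299.7, 27839.6 and 22771 in control 3, control 4, control 6, iSOD2 5, iSOD2 9 and iSOD2 10. Its 4 lowest hearts were those of Snora74a. Rpph1 was also lowest in iSOD2 5 (60623), control 4 (62294) and iSOD2 10 (66279), with 77914 to 91495 in the other hearts.

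Rmrp and Rpph1 are transcribed from genes of their own, and their litter difference on the log2 scale was near that of Snora74a, at -0.25 (SE 0.10, DESeq2 adjusted p = 0.160) and -0.26 (SE 0.09, adjusted p = 0.0561) for B against A. With the log2 of the mean normalized count of both as a covariate, chosen after seeing the data, the litter difference of Snora74a was -0.10 (SE 0.09, DESeq2 adjusted p = 0.795), the median of the members tested 0.01, and 2 of the 8 abundant rows were lower in litter B. Both RNAs had already been seen to follow a heart order like that of Snora74a, so this fit cannot decide their part in the result. That part was not tested.

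**Figure D3:**
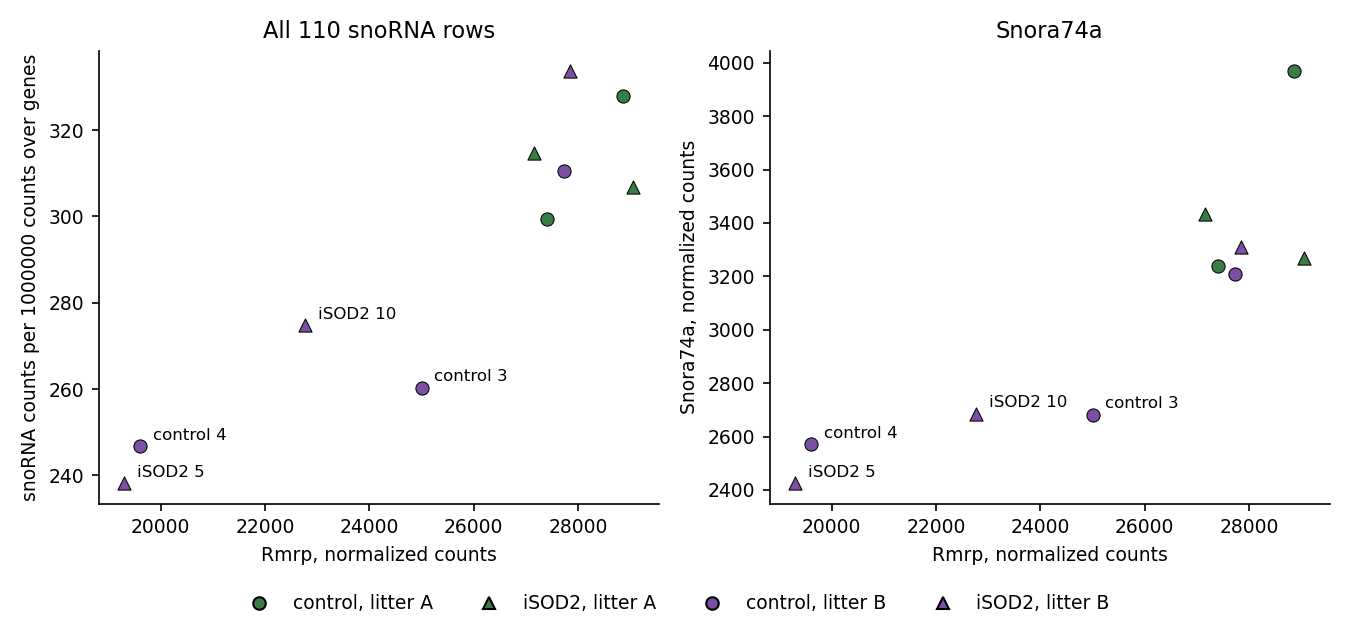
Summed counts of the 110 snoRNA rows per 1000000 counts over genes (left) and Snora74a normalized counts (right) against Rmrp normalized counts, 1 point per heart. The named hearts, iSOD2 5, control 4, iSOD2 10 and control 3, are lowest on both measures and on Rmrp, and the other 6 hearts lie at 299 snoRNA counts per 1000000 or above and at 3207 Snora74a counts or above.

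In both classes more rows were lower than higher in litter B. Of the Snora rows tested 27 of 35 were lower with a median log2 fold change of -0.22, and of the Snord rows 34 of 54 with a median of -0.16. At a mean of at least 5 the medians were -0.27 and -0.18. The difference between the classes was not tested. By genotype the medians were -0.05 and -0.04. Snora31 and Snord35b had litters that did not overlap (4.03% of all genes tested had none). Snora31 had 10.9, 13.1, 9.84 and 10.6 normalized counts in litter A against 4.64 to 8.8 in litter B (median 7.26), or -0.72 on the log2 scale (SE 0.44, adjusted p = 0.493 by DESeq2). Snord35b had 5.43, 7.76, 7.25 and 6.17 against 3.42 to 5.07 (median 4.25), or -0.59 on the log2 scale (SE 0.56, adjusted p = 0.732 by DESeq2). Both were chosen after their values were seen. No member was called for an interaction of genotype with litter, where 0.00564% of all genes were, and 0 members had an unadjusted p under 0.05 by DESeq2 (1.79% of all genes) and 2 by edgeR (Snora43 and Snord71, beside 3.81% of all genes). For Snora74a the interaction was 0.10 (SE 0.18).

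**Figure D4:**
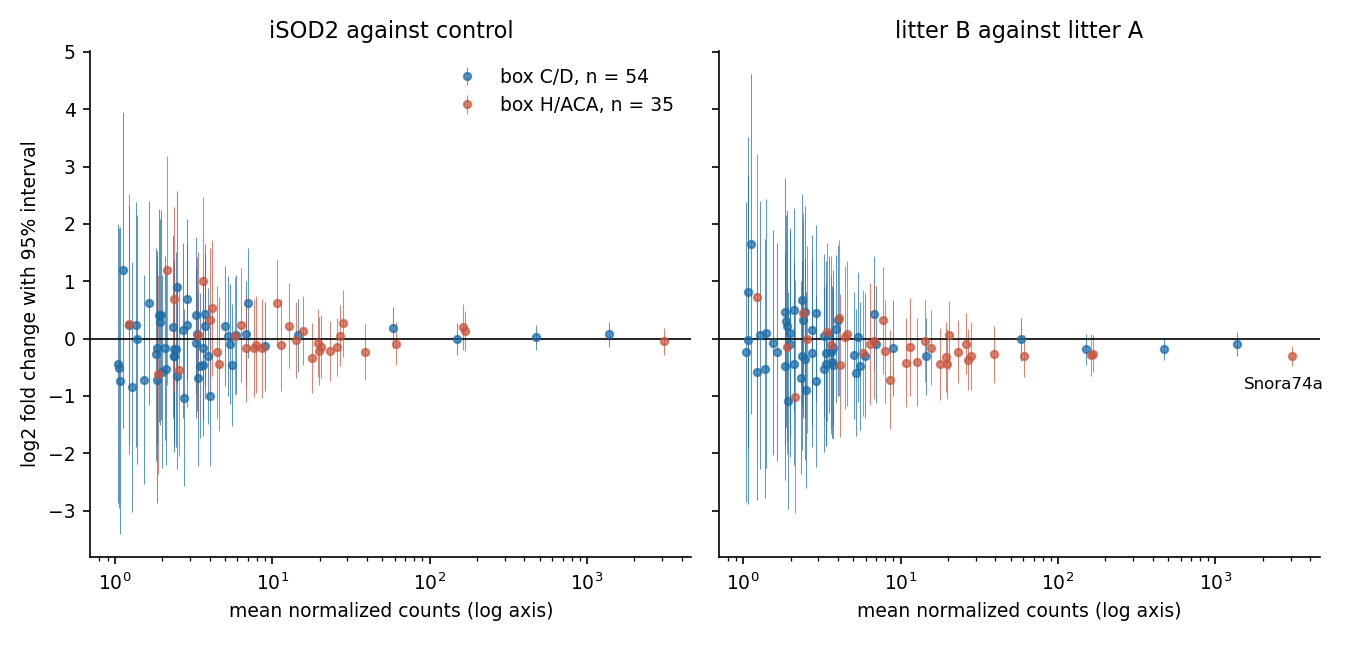
Log2 fold change with its 95% interval (DESeq2) of the 89 snoRNA rows tested against the mean normalized count (log axis), for iSOD2 against control (left) and litter B against litter A (right), coloured by box class. Intervals narrow from left to right, and in the right panel all 8 rows above 50 counts lie below 0, with Snora74a, the row called, named.

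The 4 snoRNAs of the Rpl13a introns were scarce, at a mean of 2.89 to 5.91 normalized counts, and none was called. Snord32a had 8.14, 3.58, 8.15, 3.95 and 5.06 in control hearts and 4.22, 5.18, 8.38, 4.4 and 8.01 in iSOD2 hearts, with a log2 fold change of 0.07 (SE 0.53). Snord33 was at 0.23 (SE 0.73), Snord34 at -0.46 (SE 0.64) and Snord35a at 0.42 (SE 0.63). The intervals were as wide as -1.20 to 1.66 for Snord33 by genotype. The host Rpl13a had 6105, 5724, 6846 and 7114 normalized counts in litter A and 3713 to 4635 in litter B, with no overlap. It fell by 0.62 on the log2 scale from litter A to B (SE 0.05, DESeq2 adjusted p = 1.11e-32). The litter values of Snord32a, Snord33, Snord34 and Snord35a were -0.30 (SE 0.56), -0.75 (SE 0.76), -0.40 (SE 0.68) and -0.46 (SE 0.66), all lower but with intervals that hold 0. With a litter interval of -2.24 to 0.74 for Snord33, a fall of the size seen in the host was not detectable at this depth.

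Of the snoRNAs that act in cleavage of the ribosomal RNA precursor, 5 rows were present and 2 tested. Snord22 is described above. The row named Snord118 (U8, needed for 28S and 5.8S rRNA) had 3.54 to 6.22 normalized counts, but it is a 43 bp stretch on chromosome 19 opposite to Rtn3 rather than the annotated gene, so its values cannot be read as those of U8. The Snord14 (U14) rows of 21 or 22 bp were listed at 0 or, for Snord14a, at 2.5 counts in all. In the imprinted cluster around Snord116, only Snord64 was tested, with 4.39 to 10.4 normalized counts and a log2 fold change by genotype of 0.08 (SE 0.47). Snord47 was the 1 row from the introns of Gas5, at 2.65 to 5.43 (-0.30, SE 0.61).

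Of the 10 rows highest per kb, Snora68 and Snora78 had a mean below 50. Snora68 had 29.8, 28.6, 20.7, 26.7 and 30.4 normalized counts in control hearts and 21.1, 19.7, 29.1, 32.3 and 21.2 in iSOD2 hearts (log2 fold change -0.15, SE 0.26). Snora78 had 44.8, 60.9, 22.6, 34.1 and 48.6 in control hearts and 29.6, 35.2, 35.3, 46.0 and 33.9 in iSOD2 hearts (-0.23, SE 0.25). In both the genotypes overlapped, and by litter they were at -0.09 (SE 0.28) and -0.28 (SE 0.26).

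Host genes were compared beside their snoRNAs. The row Snhg4, which encloses Snora74a, had 39.2 to 58.4 normalized counts, or 44.2 per kb, far below the 15630.3 of Snora74a. Its litter difference was 0.21 (SE 0.19), opposite in sign to that of the snoRNA and with an interval that holds 0. Of the 64 hosts of tested members, 51 had an adjusted p and 3 were called by genotype (Rpl12 and Rpl23 higher, Srcap lower in iSOD2), where 2.96% of all genes with an adjusted p were called. Rps3, host of Snord15a and Snord15b, was at 0.14 by genotype (SE 0.05, DESeq2 adjusted p = 0.0489), below the fold threshold.

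Genes of snoRNP formation were taken as a list of 42 genes tested. It held core proteins, assembly factors, factors of RNA end processing and decay, and 17 noncoding hosts (Gas5 and Snhg genes), which make no snoRNP protein. By genotype 1 was called, Nop10, a core protein of H/ACA snoRNPs, among 18 with an adjusted p (2.96% of all such genes were called). The list had 25 genes higher and 17 lower, with a median log2 fold change of 0.08, beside 50.4% of all genes lower and a median of 0.00. Nop10 had 401, 358, 367, 423 and 383 normalized counts in control hearts and 495, 476, 519, 458 and 485 in iSOD2 hearts. Every iSOD2 heart was above every control heart (0.33, SE 0.07, DESeq2 adjusted p = 0.000909, exact permutation p = 0.00794). The call was lost in edgeR (adjusted p = 0.0664) and when the trend with exon length was removed (0.20, adjusted p = 0.167). Of the other H/ACA core genes, Dkc1, the pseudouridine synthase, was at 0.00 (SE 0.09), Nhp2 at 0.21 (SE 0.12) and Gar1 at 0.41 (SE 0.25). The C/D core genes Nhp2l1, Fbl, Nop56 and Nop58 were at 0.12 (SE 0.06, adjusted p = 0.282 by DESeq2), 0.10, 0.09 and -0.04. Of the 17 noncoding hosts 11 stood higher in iSOD2 hearts and 6 lower. Only Gas5 had an adjusted p, and it was not called. The lowest value was that of Snhg9, at -0.54 (SE 0.46) with a mean of 7.7 normalized counts, which was named after its value was seen. Among those with a mean of at least 50, Snhg6 had 46.9 to 56.7 in controls and 63.6 to 81.7 in iSOD2 mice (0.45, SE 0.16, exact permutation p = 0.00794), but its counts were too low for an adjusted p. This exact p and that of Nop10 are the smallest these arrangements can give, and both genes were named after their values were seen. Genotypes without overlap were found in 3.77% of all genes tested. Snhg8, Snhg18 and Snhg17 were at 0.26, 0.23 and 0.21 with intervals that hold 0. By litter 1 gene of the 41 with an adjusted p was called, where 3.5% of all genes were, namely the assembly factor Pih1d1, which fell by 0.80 from litter A to B (SE 0.07, adjusted p = 4.42e-26), with 658 to 688 normalized counts in litter A and 359.9 to 421 in litter B.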

How the data were processed

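Total RNA from 10 hearts was made into stranded libraries depleted of ribosomal RNA. The authors aligned reads to mm10 with STAR and summed them over exons with HOMER. The paper states trimming only for experiments whose reads held adaptor sequences. What was deposited is a table of estimated counts in steps of 0.5, without normalization by the authors, beside another unit, the exon length in bp. The counting is not stated to use strand, so antisense and overlapping rows are uncertain.

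Counts were rounded, genes with fewer than 10 counts in all were left out (17728 kept), and DESeq2 1.42.0 in R 4.3.3 tested genotype, litter (genotype as covariate) and their interaction, with Benjamini-Hochberg adjustment over all genes. Calls needed an adjusted p of at most 0.05 and an absolute log2 fold change above 0.25. Two-sided exact permutation tests used normalized counts (all arrangements of the mice by genotype or by litter). The procedure was tested on simulated data, with changes placed only in genes with a mean of at least 50. Those changes were larger than any difference of the abundant snoRNA rows. The check therefore does not cover rows of few counts or small changes. With 16.4 to 24.3 counts per library, in units of 1000000, counting error is relatively largest in rows of few counts. Alternatives were edgeR 4.0.16, TMM, other filters and covariates, an exon-length trend, and leaving out each mouse. P-values measure the spread between mice of 2 litters.

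Named rows are the 10 highest per kb, called rows, rows with a mean of at least 50, the fixed groups and their hosts, and, of the snoRNP list, the called genes and the 5 largest changes by genotype at a mean of at least 50. Members and lists were chosen with earlier results of these data known. The sequence of Snora74a and the values of some hosts are not reported here.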

Additional observations from a re-analysis of the deposited data

Results flagged for a closer look

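Among 60 groups of hearts examined for the 15 named rows that were tested, 3 held a heart far from the others by Dixon's ratio, and chance flags about 1 in 20 groups, or 3 of 60. Snora7a had 73.9 normalized counts in control 6, above the other litter B hearts at 47.0 to 56.3. Snord15a had 72.5 in iSOD2 7, above the other litter A hearts at 53.4 to 55.1. Snora68, an H/ACA RNA, had 19.7 in iSOD2 7, below the other litter A hearts at 28.6 to 29.8, and without regard to litter its hearts ran up to 32.3. The heart iSOD2 7 was thus high in Snord15a and low in Snora68.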

How the results depend on the processing

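No snoRNA row was called by genotype, or for the interaction with litter, in any of the alternatives run. Over all genes, 281 were called by genotype in the test run here, which is not the paper's own number. Across the alternatives these calls ran from 0 (edgeR) to 577 (no fold threshold). Those by litter, 548, ran from 90 (iSOD2 mice alone) to 705 (without iSOD2 5). The 1 litter call (Snora74a) became 0 in edgeR, with genotype and sex as covariates, in control mice alone, in iSOD2 mice alone, and with the level of Rmrp and Rpph1 as covariate, and it ranged from 0 to 1 when 1 mouse was left out. Snora74a kept its sign, from -0.38 (exon-length trend removed) to -0.10 (Rmrp and Rpph1 as covariate), in the 23 alternatives. The 1 call in the snoRNP list (Nop10) became 0 in edgeR, with the exon-length trend removed, and in litter A or litter B alone, and was 1 without each mouse in turn. The cause was not tested. The snoRNA share, as a log2 ratio, was 0.02 by genotype (-0.03 to 0.09) and -0.17 by litter (-0.23 to -0.09) over its alternatives. The median log2 fold change of the members tested ran from -0.11 to 0.05 by genotype, changing sign in 8 of the 24 alternatives, and from -0.26 to 0.01 by litter. With litter as covariate, which sets littermates against each other, 326 genes and no snoRNA row were called by genotype. Depth limits the rows of few counts, whose intervals are wide. Control and iSOD2 mice share no replicate number in the labels, so no replicate block was fitted.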
